A study of Mus musculus with 8 samples.

Results

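Prrx1, Six2 and Alx1 are 3 homeobox genes of the head mesenchyme, and they were followed here in forebrain RNA of mouse embryos at E9.5. Each was found by its current symbol in the authors' deposited comparison and had 1 probe set there, so the members were 3 of the 330 probe sets listed and 3 of the 45037 non-control probe sets on the Affymetrix array. That list was made in large part from the genotype contrast itself (a fold of at least 1.5 with p-values of at most 0.05). An analysis of variance over 3 coded groups, 1 of them not analysed here, gave part of those p-values. The genotype differences of the 3 genes are therefore given as a description, and nothing rests on their direction. The tested embryos, called VEGF120, carried a knock-in of VEGF120 cDNA at the gene of VEGF-A and made that isoform but no other, so the longer VEGF164 was missing. The controls were wild type. Both genotypes had the C57Bl/6 background, both were taken at E9.5, and each gave 4 arrays. The knock-in acts in every cell that uses the VEGF-A gene, not in the forebrain alone. The labels do not say whether an array held a single embryo, a litter or a pool, so the spread between arrays may be technical in part.

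Homeobox genes encode transcription factors that bind DNA through a homeodomain, and many homeodomains recognise sites built on the letters TAAT. Head mesenchyme is the loose tissue between the brain wall and the surface ectoderm. It derives from cranial neural crest and from mesoderm, and it forms the bone and cartilage of the face and much of the skull. Prrx1 is a paired-related homeodomain factor of limb bud and craniofacial mesenchyme, and mice without it have defects of the skull, jaw, middle ear and limbs. Six2 belongs to the sine oculis family and is best known for keeping nephron progenitors of the kidney undifferentiated, with further expression in facial mesenchyme. Alx1, formerly called Cart1, is an aristaless-like factor of craniofacial mesenchyme, and mice without it fail to close the cranial neural tube. None of the 3 is a standard marker of the forebrain neuroepithelium.

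The promoters are shown because many homeodomain factors, though not all, bind TAAT-like letters and 2 of the 3 genes had an entry in the RefSeq promoter table. Which factors bind these windows was not tested. Each line gives the 250 bases before the annotated gene start (5′ to 3′ on the gene's strand, build GRCm38.p6), with TAAT read on either strand in capitals. The Prrx1 window is chr1:163313651-163313900 on the minus strand, and the Six2 window is chr17:85688255-85688504 on the minus strand.
Prrx1: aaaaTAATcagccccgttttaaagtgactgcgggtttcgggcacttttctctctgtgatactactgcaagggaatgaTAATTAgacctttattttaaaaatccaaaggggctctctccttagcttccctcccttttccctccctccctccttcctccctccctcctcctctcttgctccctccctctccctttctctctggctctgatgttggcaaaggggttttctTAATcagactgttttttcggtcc
Six2: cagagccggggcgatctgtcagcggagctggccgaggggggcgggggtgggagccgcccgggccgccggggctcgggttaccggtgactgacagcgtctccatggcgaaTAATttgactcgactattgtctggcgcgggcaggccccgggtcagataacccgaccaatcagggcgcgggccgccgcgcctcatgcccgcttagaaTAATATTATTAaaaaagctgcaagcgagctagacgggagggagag
The Prrx1 window held 3 capital runs, and 1 of them was the palindrome TAATTA, whose first base lay 173 bases before the start. The Six2 window held 2 runs and no such palindrome. By comparison, TAAT occurred on either strand in 54.9% of the 32851 promoter windows of this length, and TAATTA, which contains it, in 4.84%. The bases G and C made up 47.6% of the Prrx1 window and 64.8% of the Six2 window, against a median of 52.4% over all windows. A match of letters is a description of the window and not a binding site.

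The deposited MAS5 signals had been scaled so that the trimmed mean was 250 on every array. Even so, the median signal ran from 62.3 to 68.5 on VEGF120 arrays and from 56.1 to 59.6 on wild type arrays, so the genotypes differed slightly in their typical probe set. The log2 ratio of 3′ to 5′ β-actin signal, a measure of RNA integrity, ran from 0.349 to 0.693 in VEGF120 and from 0.305 to 0.43 in wild type. For Gapdh the same ratio ran from −0.331 to −0.0431 in VEGF120 and from −0.375 to −0.287 in wild type. The part of these shifts in the values below was not tested beyond the scaling alternatives.

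Prrx1 had a probe set brighter on average than 85.5% of all. On the VEGF120 arrays its probe set 1425528_at (chromosome 1) gave signals of 636, 556, 903 and 560, and on the wild type arrays 331, 441, 354 and 395. The genotypes did not overlap, and VEGF120 replicate 3 stood well above the other VEGF120 arrays. The mean signal was 664 ± 164 in VEGF120 and 380 ± 48.6 in wild type (SD, n = 4 each). On the log2(signal + 16) scale the means were 9.38 ± 0.32 in VEGF120 and 8.62 ± 0.18 in wild type, a difference of 0.76 ± 0.16 (SE) or 1.69-fold. Without VEGF120 replicate 3 the log2 difference was 0.603, and the groups still did not overlap. In bulk tissue of this kind, a different share of mesenchyme cells in the dissected piece and a different amount of RNA per cell cannot be told apart.

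Six2 had signals of 268, 326, 340 and 356 on the VEGF120 arrays for probe set 1427436_at (chromosome 17), and 164, 257, 177 and 178 on the wild type arrays. The groups did not overlap, but wild type replicate 2 lay close below VEGF120 replicate 1, at 257 against 268. The mean signal was 322 ± 38.6 in VEGF120 and 194 ± 42.3 in wild type (SD, n = 4 each). The log2 means were 8.40 ± 0.17 in VEGF120 and 7.69 ± 0.27 in wild type, a difference of 0.70 ± 0.16 (SE) or 1.63-fold. After each array was centred on its own median the Six2 groups overlapped and the log2 difference was 0.578.

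Alx1 showed the widest difference and also the widest scatter of the 3. Its probe set 1435022_at (chromosome 10) gave 406, 240, 342 and 264 on the VEGF120 arrays, and 95.3, 245, 111 and 146 on the wild type arrays. The groups overlapped by a narrow margin, since wild type replicate 2 at 245 lay above VEGF120 replicate 2 at 240. The mean signal was 313 ± 75.9 in VEGF120 and 149 ± 67.4 in wild type (SD, n = 4 each). The log2 means were 8.33 ± 0.33 in VEGF120 and 7.29 ± 0.54 in wild type, a difference of 1.05 ± 0.24 (SE) or 2.06-fold. Leaving out wild type replicate 2 gave a log2 difference of 1.292, and leaving out replicate 1 gave 0.882. The signals of different probe sets are not on a common scale of transcript abundance, so the levels of the 3 genes were not ranked against each other.

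**Figure D1:**
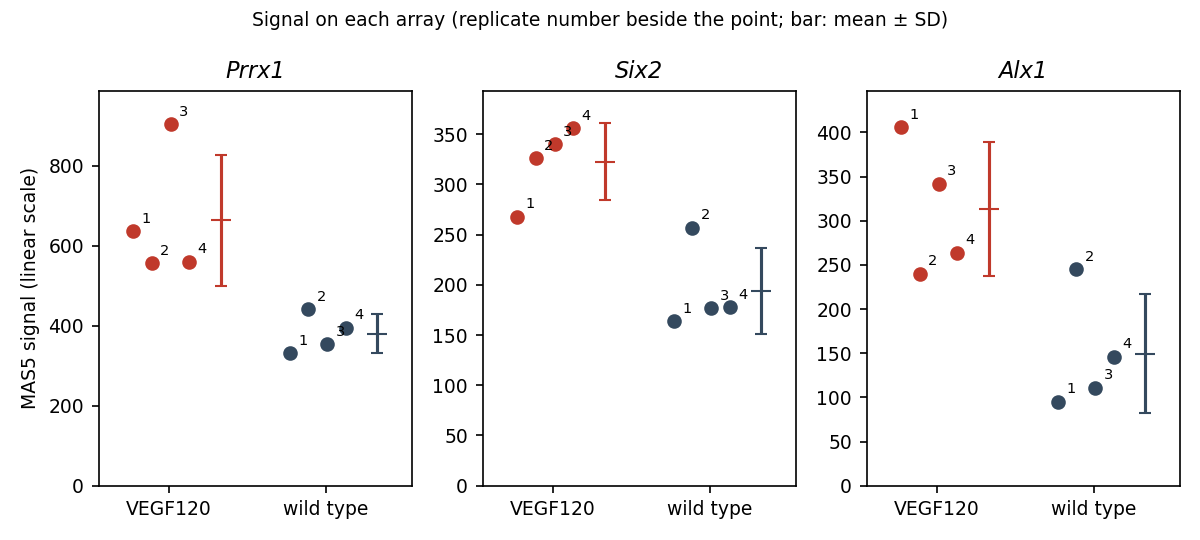
MAS5 signal (linear scale, arbitrary units) of the Prrx1, Six2 and Alx1 probe sets on each array, VEGF120 left and wild type right, with the number of each point giving the replicate and the bar the mean ± SD (n = 4 each). Prrx1 and Six2 separate the genotypes, while for Alx1 wild type replicate 2 at 245 sits above VEGF120 replicate 2 at 240.

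None of the 3 passed the test across the whole array. Limma with Benjamini-Hochberg adjustment over 27022 probe sets gave each of them an adjusted p of 0.459, and it called 0 probe sets in all (0%), against 2645 (9.79%) at an unadjusted p under 0.05. The plain unpaired test also called 0. Genotypes did not overlap for 2 of the 3 members, Prrx1 and Six2, both with all VEGF120 values on the upper side. That pattern was shown by 873 of the tested probe sets (3.23%) and its opposite by 481 (1.78%), which makes 1354 in either direction (5.01%). Because the genes were picked on this contrast, that share is printed for scale only. A log2 difference at least as large as that of Alx1 was found for 69 tested probe sets (0.255%), as large as that of Prrx1 for 327 (1.21%) and as large as that of Six2 for 476 (1.76%). The median difference over all tested probe sets was 0.0416, and 57.3% of them were positive.

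**Figure D2:**
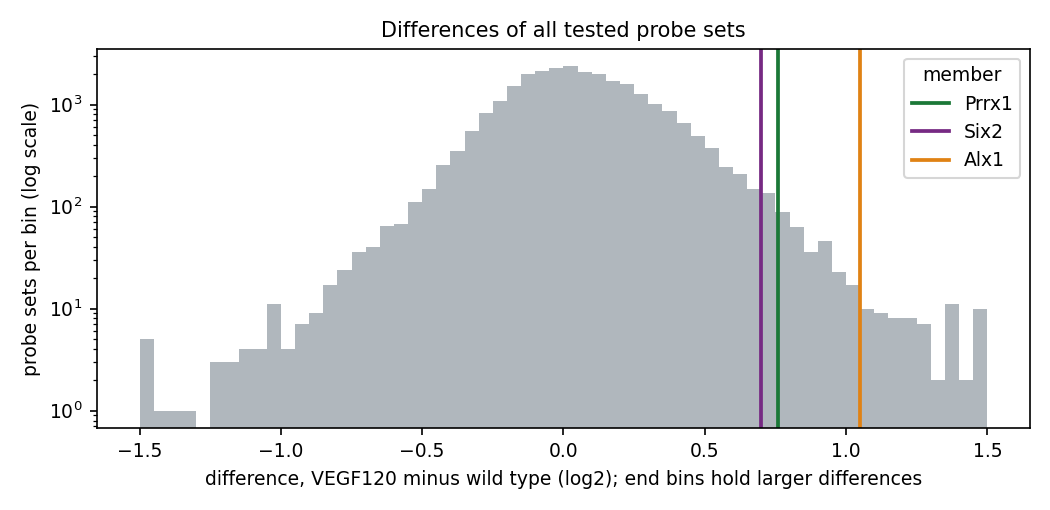
Histogram of the log2 difference (VEGF120 minus wild type) of the 27022 tested probe sets, with the number of probe sets on a log axis and lines at Prrx1, Six2 and Alx1. The 3 genes lie in the upper tail at 0.76, 0.70 and 1.05, with 327, 476 and 69 probe sets at or beyond them.

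The authors' deposited table gave smaller differences for the same genes from PLIER summaries, another way of turning probes into 1 value. In the authors' deposited table the log2 mean of Prrx1 was 8.10 in VEGF120 and 7.50 in wild type, a fold of 1.51 with an unadjusted p of 0.02 in an unpaired test. For Six2 the authors' deposited table had 7.94 in VEGF120 and 7.29 in wild type, a fold of 1.57 with p = 0.0372. For Alx1 the authors' deposited table had 7.19 in VEGF120 and 6.31 in wild type, a fold of 1.83 with p = 0.0392. Those p-values are not adjusted for the number of probe sets. Prrx1 lay just inside the fold threshold, with the 8th smallest fold of the 139 probe sets listed as higher in the authors' deposited table, and Six2, with an analysis-of-variance p of 0.0499 there, lay just inside the limit on p. The analysis of variance covered 3 coded groups and not the 2 genotypes alone. Probe sets just outside the thresholds were not analysed here. The order of the 3 folds differed between the summaries. Alx1 came first in both, while Prrx1 was above Six2 in the MAS5 signals and below it in the authors' deposited table. The margin in the MAS5 signals was smaller than the standard errors, and no standard error was available for the other.

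The scatter among arrays of 1 genotype also enters the p-values by which the authors' list was chosen, so the values that follow are a description and not independent of that choice. The residual SD on the log2 scale was 0.26 for Prrx1, 0.23 for Six2 and 0.45 for Alx1, beside a median of 0.25 over all tested probe sets. Alx1 thus varied more than 86.1% of probe sets, whereas Prrx1 and Six2 were near the middle, at 53% and 43.4%. The range over VEGF120 arrays was 0.72 for Alx1, 0.68 for Prrx1 and 0.39 for Six2. Over wild type arrays it was 1.23 for Alx1, 0.40 for Prrx1 and 0.60 for Six2.

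All 3 genes had their highest wild type value on replicate 2 and their lowest on replicate 1. Replicate 2 stood above the wild type mean by 0.21 for Prrx1, 0.40 for Six2 and 0.74 for Alx1, and replicate 1 deviated from it by −0.18, −0.20 and −0.49 in the same gene order. Wild type replicate 2 was the highest wild type array for 25.8% of all tested probe sets, so it was not bright throughout. The VEGF120 arrays had no such common order: the highest was replicate 3 for Prrx1 (0.46 above its mean), replicate 4 for Six2 (0.14) and replicate 1 for Alx1 (0.39). Across the 8 arrays the deviations from the genotype means had r = 0.65 for Prrx1 with Alx1, 0.49 for Six2 with Alx1 and 0.39 for Prrx1 with Six2. These are descriptions over 8 arrays that share their scaling and dissection, and they carry no p. They also turned on single arrays: without wild type replicate 2 the Six2 and Alx1 value was −0.44 and the Prrx1 and Six2 value 0.12, and without VEGF120 replicate 3 the Prrx1 and Alx1 value was 0.98.

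**Figure D3:**
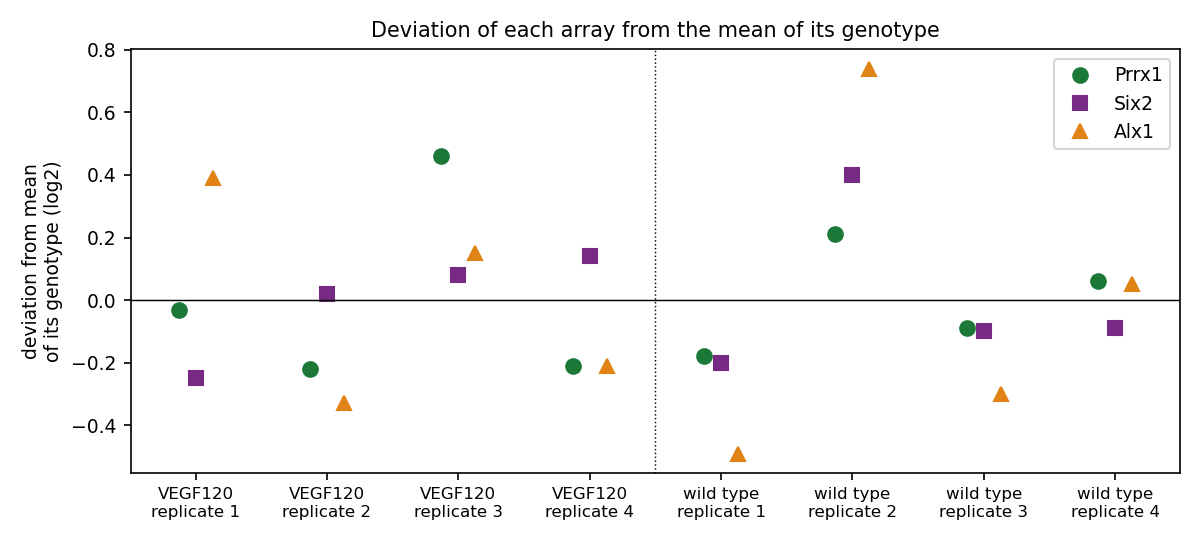
Deviation of each array from its genotype mean (log2 signal) for Prrx1, Six2 and Alx1, VEGF120 arrays left and wild type arrays right. Wild type replicate 2 is the highest and replicate 1 the lowest wild type array for all 3 genes, and the VEGF120 arrays have a different highest array for each gene.

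The named genes whose signal followed each member most closely over the 8 arrays were looked up among the 80 bright genes with a name that are considered here, all from the list chosen on genotype, so a high r over 8 arrays partly restates that choice. The r of deviations from the genotype means, given second, leaves out the difference between genotypes but not the choice of the closest genes, since the same deviations enter the first r. For Prrx1 they were Pdk1, a kinase that restrains pyruvate dehydrogenase (0.96 and 0.92), Dlx1, a distal-less homeobox factor of the ventral forebrain (0.90 and 0.53), and the glycolytic enzyme Pfkl (0.89 and 0.57). For Six2 they were Dlx1 (0.93 and 0.64), Pfkl (0.91 and 0.60) and Creb3l4, a CREB-type transcription factor held in membranes (0.89 and 0.51). For Alx1 they were Creb3l4 (0.93 and 0.79), Trpm1, a cation channel of retinal bipolar cells and melanocytes (0.85 and 0.71), and Pdk1 (0.83 and 0.55). The values of Creb3l4 and Trpm1 rest on very dim wild type signals and carry no weight.

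Of the genes named by likeness, Pdk1 had the highest r with a member, Prrx1. Its signals were 1161, 918, 1599 and 907 on the VEGF120 arrays, against 640, 741, 603 and 832 on the wild type arrays. As with Prrx1, VEGF120 replicate 3 was the highest array, the groups did not overlap, and the log2 difference was 0.66 ± 0.17 (SE). Without VEGF120 replicate 3 the Pdk1 difference was 0.492. How far the r of Pdk1 with Prrx1 rests on that array was not tested. Pfkl had 2968, 3719, 4409 and 3490 in VEGF120, against 2395, 2581, 1896 and 2197 in wild type. It too was highest on VEGF120 replicate 3, its groups did not overlap, and the log2 difference was 0.68 ± 0.13. Dlx1 had 86, 92.6, 113 and 110 in VEGF120, against 48.3, 57.8, 41.1 and 58.7 in wild type. Its groups did not overlap, and the log2 difference was 0.79 ± 0.20. Creb3l4 and Trpm1 passed the brightness filter, a mean signal of 39.8, only through their VEGF120 arrays, so they had to differ and their likeness to the members rests on very dim wild type values. Creb3l4 had 75, 60.3, 61.1 and 71.3 in VEGF120, against 9.43, 33.7, 9.51 and 30.4 in wild type. Trpm1 had 144, 9.36, 69.3 and 58.3 in VEGF120, against 8.38, 27.6, 9.42 and 10.6 in wild type. Their log2 differences depended on the added value, at 1.24 for Creb3l4 and 1.29 for Trpm1 with 16 added, and 0.639 and 0.694 with 64 added.

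Other genes of the head mesenchyme and of neighbouring tissues could be read only where the authors' deposited table gave a name, and the counts are of the genes reported here. Since that table was chosen on genotype, they say nothing about the lists as a whole. Of 40 head mesenchyme transcription factors, the 3 members are reported, with 0 called and a median log2 difference of 0.76. Of 20 genes of migrating neural crest, the cells that give rise to much of this mesenchyme, 1 is reported, with a lower mean in VEGF120 and 0 called. Pax3, a paired homeodomain factor of dorsal neural tube and crest, had 210, 256, 118 and 298 in VEGF120, against 297, 329, 266 and 307 in wild type. Its groups overlapped, and the log2 difference of −0.48 ± 0.22 was −0.234 without VEGF120 replicate 3, the array on which Prrx1 was highest.

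Of 34 genes for mesenchyme matrix and growth factor receptors, 2 are counted and 1 was above the filter, with 0 called. This was Dlk1, an imprinted membrane protein of the Notch ligand type, with 4585, 3325, 4419 and 2530 in VEGF120, against 1909, 2657, 2290 and 1400 in wild type. The groups overlapped narrowly, and the log2 difference was 0.84 ± 0.20 (SE). Of 26 genes of neuroepithelium and forebrain identity, 2 are reported, both with lower means in VEGF120 and 0 called. Dlx1, a forebrain factor not on that list, had a higher mean in VEGF120, with a log2 difference of 0.79. Sp8, a zinc finger factor of the anterior forebrain, had 209, 287, 349 and 225 in VEGF120, against 388, 382, 484 and 447 in wild type, a log2 difference of −0.66 ± 0.16 without overlap. Sfrp1, a secreted Wnt antagonist, had 597, 401, 400 and 468 in VEGF120, against 578, 634, 666 and 991 in wild type, with overlap and a log2 difference of −0.59 ± 0.17. No gene is reported from the lists of endothelium (15 genes), blood (12), surface ectoderm (13) or muscle and somite mesoderm (10). The tissue label could thus be set against few of its markers, and whether the dissected pieces held unequal amounts of mesenchyme was not tested.

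**Figure D4:**
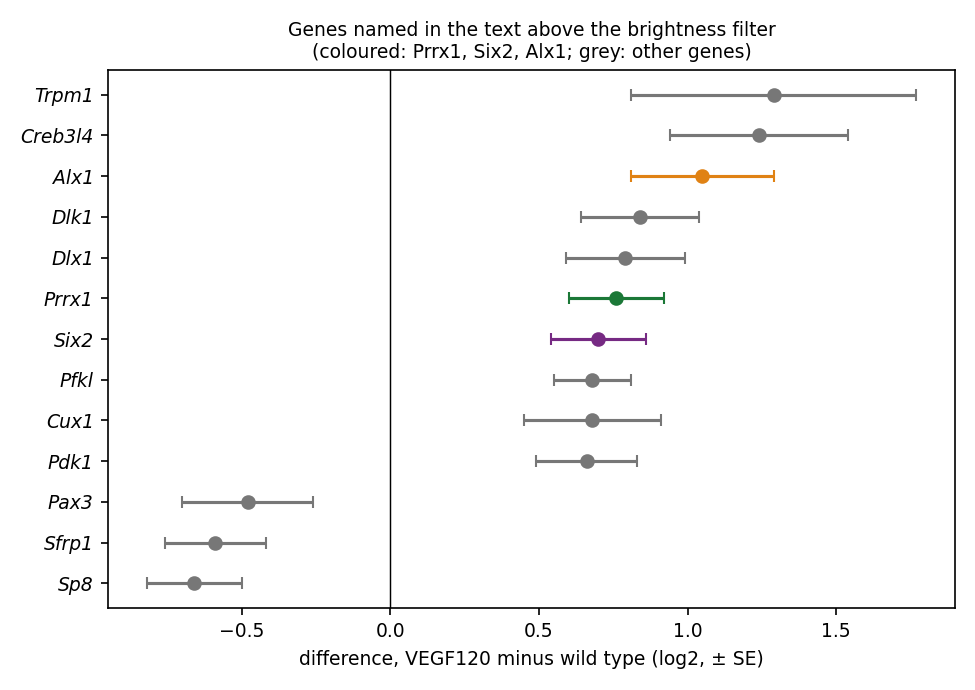
Log2 difference (VEGF120 minus wild type, ± SE, n = 4 each) of Prrx1, Six2, Alx1 and the other genes named above the filter, ordered by the difference, with the members coloured (Creb3l4 and Trpm1 have very dim wild type values). The members lie between 0.70 and 1.05, and Pdk1, Pfkl, Cux1, Dlx1 and Dlk1 between 0.66 and 0.84. Pax3, Sp8 and Sfrp1 lie between −0.66 and −0.48. None of the genes shown passed adjustment over 27022 probe sets.

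The authors' deposited enrichment output from DAVID grouped annotation terms of their list, and the members recurred in it: Prrx1 stood in 4 of its 75 clusters, Six2 in 5 and Alx1 in 8. The homeobox cluster, with an enrichment score of 2.27 in that output, held 10 probe sets including all 3 members. Of these, 8 were higher and 2 lower in VEGF120 in the authors' deposited table, on whose contrast they had been chosen. The 3 members are among the 8. The whole list had 139 probe sets higher and 191 lower. Besides the members, Dlx1 and Pax3, it held Cux1, a cut-like homeodomain repressor, with 109, 258, 193 and 139 in VEGF120, against 76.2, 119, 105 and 96.1 in wild type. The groups overlapped, and the log2 difference was 0.68 ± 0.23 (SE). Vsx1, a homeobox gene of retinal interneurons, was 1 of the 8 listed as higher. It was too dim to read, with signals of at most 5.83 in VEGF120 and at most 4.82 in wild type. The cluster of limb morphogenesis terms (score 2.29) held 7 probe sets, Prrx1 and Alx1 among them, with 6 higher and 1 lower. Prrx1 alone of the 3 was also in the cluster of blood vessel morphogenesis (score 1.25, 8 probe sets).

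The 3 genes shared few annotation terms. The deposited gene ontology table gave Prrx1 13 biological process terms, Alx1 11 and Six2 9, and 4 were common to all 3. The most specific of these was embryonic skeletal system morphogenesis, where all 4 listed probe sets were higher in the authors' deposited table. The others were broad: multicellular organismal development had 11 higher and 11 lower of 22, regulation of transcription 17 and 11 of 28, and its DNA-dependent form 11 and 6 of 17. Middle ear morphogenesis was shared by Prrx1 and Six2, and palate development and embryonic limb morphogenesis by Prrx1 and Alx1. The members' inclusion raises these counts, and the list was chosen on the same genotype contrast. Over the whole list 139 probe sets were higher and 191 lower.

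The differences of the members kept their direction in all 54 values from 18 alternative settings, with limma or plain-test adjusted p between 0.183 and 0.789. A changed filter, variance model or replicate block cannot alter the difference itself, so those values repeat the reported ones. The members were also chosen on this contrast, so the kept direction is a description only. Centring each array on its median lowered the differences most among the scalings, to 0.635 for Prrx1, 0.578 for Six2 and 0.922 for Alx1. After quantile normalization they were 0.741, 0.646 and 0.982 in the same order.

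**Figure D5:**
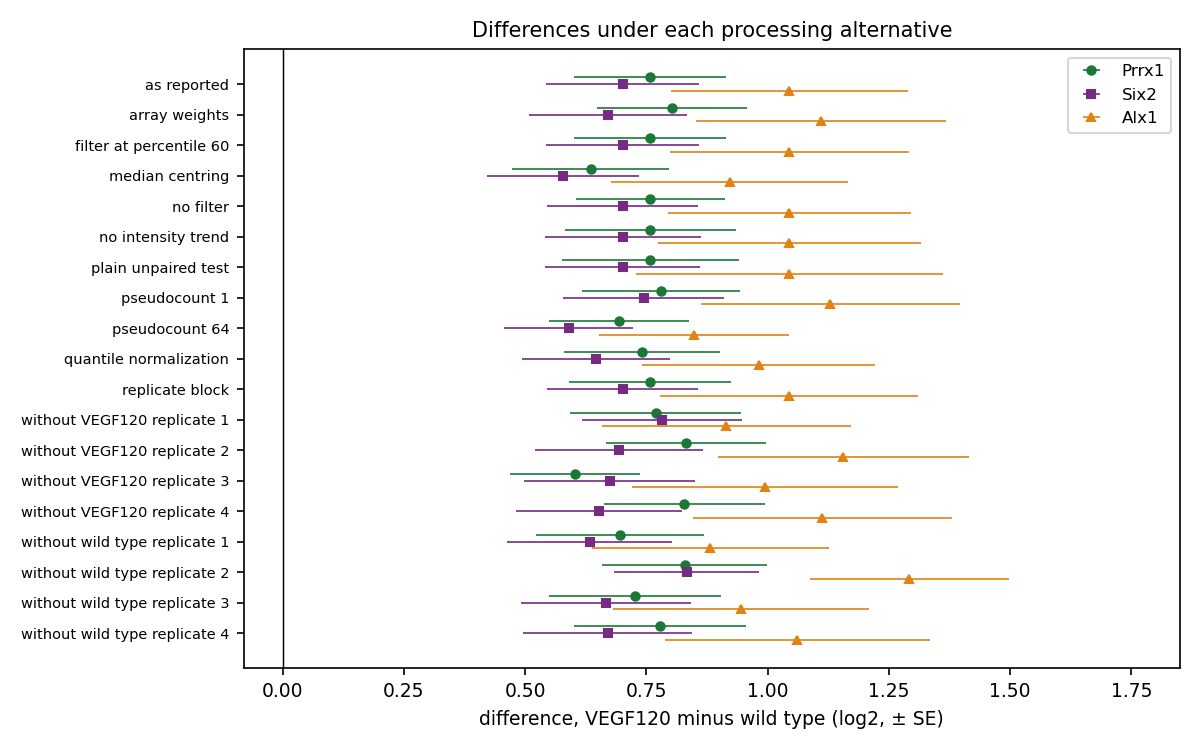
Log2 difference (VEGF120 minus wild type, ± SE) of Prrx1, Six2 and Alx1 under the reported setting and each alternative. Every point lies above 0, from 0.578 for Six2 after median centring to 1.292 for Alx1 without wild type replicate 2.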

How the data were processed

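Forebrain RNA of 4 VEGF120 and 4 wild type embryo samples at E9.5 was measured on 8 arrays of 45101 probe sets. The deposited values are linear intensities that the submitters' processing notes credit to MAS5 and Affymetrix Expression Console, without versions or a genome build. The authors' deposited comparison gives log2 means from PLIER, an unsigned fold and its direction, and p-values without adjustment. Per the file headers, it was selected at a fold of at least 1.5 and p of at most 0.05, over 3 coded groups, 1 of them not analysed here. Its 12 per-array columns match no label and were not used. The deposited DAVID output gives an enrichment score per cluster. Names came from the authors' table, where 251 of 330 probe sets had 1 current symbol. RefSeq gave the promoter windows, for 2 of the 3 members, and gave the same symbol for 3 of 3 by Entrez identifier.

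Signals were taken as log2(signal + 16), which understates changes of dim probe sets. Without the 64 controls and those whose mean signal was under the 40th percentile (39.8), 27022 probe sets remained. The contrast was fitted by lmFit and eBayes of limma 3.58.1 (R 4.3.3), with an intensity trend and no replicate block, and Benjamini-Hochberg adjustment at 0.05. The script was tested on simulated data with independent noise in each probe set, which cannot show how it handles shifts shared by a whole array. At most 0.00444% of values were identical between any 2 arrays. The number of arrays limits the precision. Figures used matplotlib 3.10.9 in Python 3.11.15.

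The members and the 9 gene lists were chosen with earlier results of these data known. Genes named were the members and their family relatives, the 3 genes most like each member by Pearson r, and from each list the 2 with the smallest p and the brightest. Of the 10 probe sets of the homeobox cluster, 7 are named here, and those not taken by this rule were named after their values were seen. A few genes that this rule takes are not reported here and were left out of the list counts and of the genes compared for likeness. Alternatives changed the added value, scaling, filter, variance model, array weights, replicate block and the arrays included.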

Additional observations from a re-analysis of the deposited data

Results flagged for a closer look

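Among the groups of 4 arrays examined for an array apart from the rest, 28 in all from 14 genes, 1 had such an array. A nominal rate of 1 in 20 would give about 1.4. The genes were chosen partly on their values over these same arrays, so that figure is printed for scale only. Trpm1 in wild type replicate 2 had a log2 signal of 5.45, while the other wild type arrays lay between 4.61 and 4.73. All 4 lie below the brightness filter, at signals of 27.6 on replicate 2 and 8.38 to 10.6 on the others, where the added 16 sets most of the log2 value.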

How the results depend on the processing

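All 231 values computed for named genes under the 18 alternatives kept their direction. Those with a changed filter, variance model or replicate block repeat the reported difference by construction. The genes also came from a list chosen on this contrast. Vsx1 was not run, being under the filter, and Dlx1, Creb3l4 and Trpm1 have no value at the 60th percentile filter. The count of probe sets called was 0 throughout except without VEGF120 replicate 1, where it was 1 (range 0 to 1 with an array left out). The count of probe sets whose genotypes did not overlap was 1354 as reported, 2183 after median centring but 1157 after quantile normalization, 1953 without the filter and 961 with the filter at the 60th percentile, where more or fewer probe sets are tested, and 1871 to 3053 with an array left out, where fewer arrays make separation easier by construction. After centring, Six2 overlapped. Without wild type replicate 2, or without VEGF120 replicate 2, Alx1 did not overlap. With an array left out, the log2 difference ran from 0.603 to 0.831 for Prrx1, from 0.633 to 0.833 for Six2 and from 0.882 to 1.292 for Alx1. The r of deviations ran from 0.12 to 0.57 for Prrx1 with Six2, from 0.59 to 0.98 for Prrx1 with Alx1, and for Six2 with Alx1 from −0.44 when wild type replicate 2 was left out to 0.9 when VEGF120 replicate 1 was; the cause was not tested. Arrays with the same replicate number had r of −0.13, −0.03, 0.11 and −0.06 in their deviations, so the numbers were not taken as pairs. With the replicate block the differences were 0.758 for Prrx1, 0.701 for Six2 and 1.045 for Alx1, each with a limma adjusted p of 0.561, and 0 probe sets were called. With 1 added to the signal the differences were 0.781, 0.745 and 1.129 in that order, and with 64 added 0.693, 0.59 and 0.849. A mean over several named probe sets of a gene was not run, because each member had 1. The deposited tables used here carry no detection call, so signal over background is unknown.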
